A study of Mus musculus with 12 samples.

Results

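Molecular chaperones and the genes of the unfolded protein response were examined in mouse granulosa cells before and 4 h after an ovulatory dose of human chorionic gonadotropin (hCG). The set was given as 40 gene symbols and was matched by the gene symbol column of the array platform. Where a gene had several probe sets, the one with the highest average over all 12 arrays stood for it. Of the 40, 38 were measured among 18194 genes, and Hsp90ab1 and Hsf1 were not analysed here. They comprise 7 cytosolic Hsp70 and Hsp110 genes, 1 cytosolic Hsp90 gene, 3 small heat shock protein genes counted together with Bag3, 4 cytosolic J proteins, 3 mitochondrial chaperones, 1 heat shock factor, 13 endoplasmic reticulum (ER) chaperones and folding enzymes, 3 sensors of the unfolded protein response and 3 of its transcription factors.

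The mice were wild type (WT) or Ex6DEL littermates on a 129Sv background. Ex6DEL carries a deletion of exon 6 of Snf2l, the gene Smarca1, which encodes an ATPase of the ISWI chromatin remodellers. The deletion was first made in loxP-flanked mice with a ubiquitously expressed Gata-1 Cre and was then kept through the germline without Cre, so it is not limited to granulosa cells. All females were 24 to 26 days old and were given 5 IU of PMSG (pregnant mare serum gonadotropin). The 0 h groups were collected 48 h after PMSG with no hCG, and the 4 h groups received 5 IU of hCG at that time and were collected 4 h later. Cells from punctured follicles of 5 mice were pooled for each sample, and each of the 4 groups had 3 arrays. The labels also count 5 mice per group, so it is not clear that the 3 arrays came from separate pools, and the p-values then measure only the spread between these arrays.

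Heat shock proteins of the Hsp70, Hsp90 and Hsp110 families hold unfolded chains and help them fold in the cytosol, and J proteins hand substrates to Hsp70 and drive its ATPase. In the ER, BiP (Hspa5) does the same for secreted and membrane proteins, and unfolded protein there activates the sensors Ern1 (IRE1), Eif2ak3 (PERK) and Atf6, which act through Xbp1, Atf4, Ddit3 and ER chaperone genes. Granulosa cells after an ovulatory stimulus make secreted matrix and signalling proteins, which pass through the ER.

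Values are on a log2 scale, where a difference of 1 is a 2-fold change. Levels of different probe sets are not read as relative amounts of RNA. They serve only to choose and describe probe sets and to define the genes above the median level. A gene is said to have risen or fallen only where limma's moderated test, with Benjamini-Hochberg adjustment over all 18194 genes, gave an adjusted p under 0.05. The array medians over all 45101 probe sets lay between 2.75 and 2.91. Over the 18194 genes they lay between 4.68 and 4.85 at 0 h and between 4.45 and 4.62 at 4 h. Every 0 h array thus had a higher gene median than every 4 h array. Of the members, 37 of 38 had a mean level above that of the median gene, 4.74, and none came within 0.1 of the floor of the table, 2.21. Members with nearly constant values were present: Hspb8 read 6.98 on 9 arrays and Hsf2 read 2.70 on 7 arrays, within 0.01. Values also repeated within 0.01 for Hspb1 (4.80 on 5 arrays), Hspa2 (5.04 on 4), Hspa4l (5.36 on 4) and Hspa1a (4.12 on 3). A level away from the floor of the table does not by itself show that a member was detected. Smarca1 read 10.31 to 11.10 on the 0 h arrays and 10.72 to 12.32 on the 4 h arrays of both genotypes, and the place of its probe set relative to exon 6 was not examined, so it does not check the genotype. The granulosa markers Inha and Inhba were high on every array, and Amh was at the floor on all 12. Over the 9 measured granulosa markers the mean response to hCG had a median of -1.52, with 7 negative, and 4 fell. There were 3 arrays that stood apart. WT 0 h replicate 1 held the lowest value of 24 of the 38 members and of 24% of the genes above the median level, and after quantile normalization the lowest of 6 members. Ex6DEL 0 h replicate 1 held the highest value of 16 members and of 32.9% of those genes, and after quantile normalization the highest of 10 members and the lowest of 12. In Ex6DEL 0 h replicate 3, genes known to be induced by hCG (16 of a list of 18 were measured) had a mean level of 8.43, against 4.05 to 5.10 on the other 0 h arrays and 10.04 to 11.59 on the 4 h arrays. The mean of 18 immediate early genes was 8.66 on WT 0 h replicate 1 and 10.88 on Ex6DEL 0 h replicate 3, against 6.23 to 6.85 on the other 0 h arrays and 8.56 to 9.96 at 4 h.

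Promoter sequence is shown first because the set has its own sequence signatures and because members that carry the same motif did not all have a change of the same sign after hCG. RefSeq windows from 250 bases before to 50 bases after the transcription start were given for 33 of the 40 genes (build GRCm38.p6). Heat shock factors bind repeats of GAA and its complement TTC, here searched on both strands as GAANNTTC and TTCNNGAA, which can overlap. One or both forms were present in 15.1% of all 32851 windows. They were present in 11 of the 16 cytosolic and mitochondrial members with a window, and in 1 of the 17 ER and unfolded protein response members, Eif2ak3. The stretches below lie at chr5:149636347-149636384 (minus strand) for Hsph1, chr17:34972238-34972275 (minus) for Hspa1a, chr17:34959320-34959357 (minus) for Hspa1b, chr5:29735837-29735879 (plus) for Dnajb6 and chr1:55088044-55088091 (plus) for Hspe1. Capitals mark the heat shock matches.
Hsph1: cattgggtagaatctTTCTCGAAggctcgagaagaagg
Hspa1a: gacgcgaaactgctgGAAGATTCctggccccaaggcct
Hspa1b: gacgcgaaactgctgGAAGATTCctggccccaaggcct
Dnajb6: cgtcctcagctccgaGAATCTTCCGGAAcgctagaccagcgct
Hspe1: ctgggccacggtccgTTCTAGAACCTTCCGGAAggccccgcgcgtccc

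The printed stretches of Hspa1a and Hspa1b are the same. Over their whole windows these neighbouring copies were identical at 296 of 300 positions, with starts 12918 bases apart, so their probe sets may not separate the copies. The Hspe1 stretch is also the promoter of Hspd1, its partner in the mitochondrial chaperonin, which starts 216 bases from Hspe1 on the other strand.

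A different signature marked the ER members. The ER stress element is a CCAAT box followed after 9 bases by CCACG, read on either strand, and is the site known to be bound by NF-Y together with Atf6 or Xbp1. It was found in 0.119% of all windows, and in 6 of the 12 ER chaperone and folding members with a window (Hspa5, Hsp90b1, Calr, Canx, Pdia6 and Dnajc3). None of the other 21 members with a window held it. These examples lie at chr2:34772010-34772058 (plus) for Hspa5, chr8:84847060-84847108 (minus) for Calr and chr11:50325785-50325833 (minus) for Canx, with the element in capitals.
Hspa5: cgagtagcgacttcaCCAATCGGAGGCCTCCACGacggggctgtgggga
Calr: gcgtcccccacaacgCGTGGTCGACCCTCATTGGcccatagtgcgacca
Canx: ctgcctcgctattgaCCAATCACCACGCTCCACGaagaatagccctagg

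Read along the direction of transcription, the Calr element is on the opposite strand from that in Hspa5 and Canx. The cAMP response element TGACGTCA, found in 1.79% of all windows, was in none of the members' windows, and TGATGNAA, a form of the amino acid response element found in 3.97% of windows, was in that of Herpud1 only. A match is a description of letters and not evidence of a bound factor.

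The first comparison asks how chaperone genes differed 4 h after hCG. Averaged over both genotypes, 1 of the 38 members passed the test: Hsph1 rose, and 37 did not pass. Hsph1 encodes Hsp110 (Hsp105), a nucleotide exchange factor that lets Hsp70 release its substrates. In the mean response 9.72% of all genes passed (3.1% higher and 6.62% lower), so a single member is a smaller share than in the array as a whole. At an unadjusted p under 0.05 limma gave 6 members higher and 4 lower, against 7.02% and 16% of all genes. The members did not move as a block: 25 changes were positive and 13 negative, with a median of 0.18, where the median was -0.01 over all genes and -0.20 over the genes above the median level. Fewer cells of one type and less RNA per cell cannot be told apart in such pooled RNA.

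Hsph1 read 9.84, 11.34 and 11.26 on the WT 0 h arrays and 13.71, 13.52 and 12.33 on the WT 4 h arrays. In Ex6DEL it read 10.94, 11.70 and 11.83 at 0 h and 13.62, 13.03 and 13.01 at 4 h. Every 4 h array lay above every 0 h array in both genotypes, which held for 2.48% of all genes in this direction. The mean response was 2.05 on the log2 scale (4.15-fold, SE 0.35, 95% interval 1.25 to 2.86, limma adjusted p = 0.0118), and its adjusted p ranged from 0.00154 to 0.0349 over the alternative settings at the same threshold. With WT 0 h replicate 1 and Ex6DEL 0 h replicate 1 both left out it was 1.67 (adjusted p = 0.0234), and without Ex6DEL 0 h replicate 3 it was 2.14 (adjusted p = 0.0144). A second Hsph1 probe set had a mean response of 2.92 (adjusted p = 0.0354 over all probe sets). Within a genotype Hsph1 did not pass over all genes: WT had a change of 2.38 (SE 0.50, adjusted p = 0.0670), and Ex6DEL had one of 1.73 (SE 0.50, adjusted p = 0.110). Without WT 4 h replicate 3 the WT change was 2.80 and passed (adjusted p = 0.0465). No other single array left out made the WT change pass.

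Hspa1a and Hspa1b encode the classical stress-inducible cytosolic Hsp70. Their changes had the opposite sign to that of Hsph1. Hspa1a read 6.90, 6.16 and 6.39 in WT at 0 h and 6.22, 4.12 and 4.14 at 4 h. In Ex6DEL its values were 6.18, 5.26 and 6.87 at 0 h and 4.12, 5.26 and 4.12 at 4 h. The arrays of WT 4 h replicate 1 and Ex6DEL 4 h replicate 2 lay within or at the range of their 0 h groups, while 3 of the other 4 h arrays shared the value 4.12, within 0.01. The mean response of Hspa1a was -1.63 (SE 0.46), which did not pass (limma adjusted p = 0.0591), and no fold is given because 3 of the 4 h arrays share 1 low value. Without WT 4 h replicate 1 it was -1.98 and passed (adjusted p = 0.0239). It did not pass with any other single array left out.

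Hspa1b read 9.39, 9.997 and 10.07 in WT at 0 h and 9.65, 8.13 and 7.67 at 4 h. Its Ex6DEL values were 11.21, 8.93 and 10.60 at 0 h and 7.57, 9.05 and 7.46 at 4 h. The time groups of Hspa1b overlapped in both genotypes, through the same 4 h arrays as for Hspa1a. The mean response was -1.78 (SE 0.51, adjusted p = 0.0659), and without Ex6DEL 0 h replicate 2 it was -2.11 and passed (adjusted p = 0.0417). Each other array left out by itself gave a mean response that did not pass. In Ex6DEL alone the change was -2.22 (SE 0.73, adjusted p = 0.145), and the other Hspa1b probe sets had mean responses of -1.72 and -1.18.

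The rest of the cytosolic Hsp70 family differed less after hCG. Hspa4, an Hsp110-type exchange factor, had a mean response of 0.58 (adjusted p = 0.138), and Hspa8, the constitutive Hsc70, one of -0.15. With single arrays left out, Hspa4 passed only without WT 4 h replicate 3, at 0.74 (adjusted p = 0.0414). Hspa2, known for its role in spermatogenesis, and Hspa4l had mean responses of 0.29 and 0.20. Hsp90aa1, the inducible cytosolic Hsp90, had one of 0.35. The small heat shock genes Hspb1 and Hspb8 and the co-chaperone Bag3, which links Hsp70 to Hspb8, lay between 0.01 and 0.32, and Hsf2 had a change of -0.02.

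Among the J proteins, Dnajb6, a suppressor of protein aggregation, read 10.24, 10.83 and 11.49 in WT at 0 h and 12.47, 12.49 and 11.60 at 4 h. Its Ex6DEL values were 11.06, 10.97 and 12.05 at 0 h and 12.48, 11.67 and 12.26 at 4 h. The WT groups did not overlap, and in Ex6DEL replicate 3 at 0 h lay above replicate 2 at 4 h. The mean response was 1.06 (SE 0.30, adjusted p = 0.0639) and the WT change 1.33 (SE 0.43, adjusted p = 0.202). Without Ex6DEL 0 h replicate 3 the mean response was 1.23 and passed (adjusted p = 0.0322). With any other single array left out it did not. One of the 3 other Dnajb6 probe sets passed over all probe sets, with a mean response of 2.24 (adjusted p = 0.0137), and the others had 1.70 and 1.23. Dnajb1 (Hsp40) and Dnaja1 had mean responses of 0.86 and 0.60, and Dnajb4 one of -0.13. That of Dnaja1 was 0.81 and passed without WT 4 h replicate 3 (adjusted p = 0.0421), but with no other single array left out.

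The mitochondrial chaperones all had positive changes in the mean response. Hspa9 (mortalin), the matrix Hsp70 that also draws proteins through the import channel, read 10.70, 11.09 and 11.06 in WT at 0 h and 12.01, 12.11 and 11.16 at 4 h. In Ex6DEL its values were 10.94, 11.03 and 11.47 at 0 h and 11.97, 11.61 and 11.44 at 4 h. The WT groups were apart, and the Ex6DEL groups overlapped by the third array of each time. The mean response of Hspa9 was 0.67 (SE 0.19, adjusted p = 0.0639), and the WT change was 0.81 (SE 0.27, adjusted p = 0.221). Without WT 4 h replicate 3 the mean response was 0.82 and passed (adjusted p = 0.0164), and without Ex6DEL 0 h replicate 3 it was 0.75 (adjusted p = 0.0480). Leaving out any other single array did not make it pass. Hspe1 and Hspd1, the subunits of the mitochondrial chaperonin, had mean responses of 0.87 and 0.41.

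**Figure D1:**
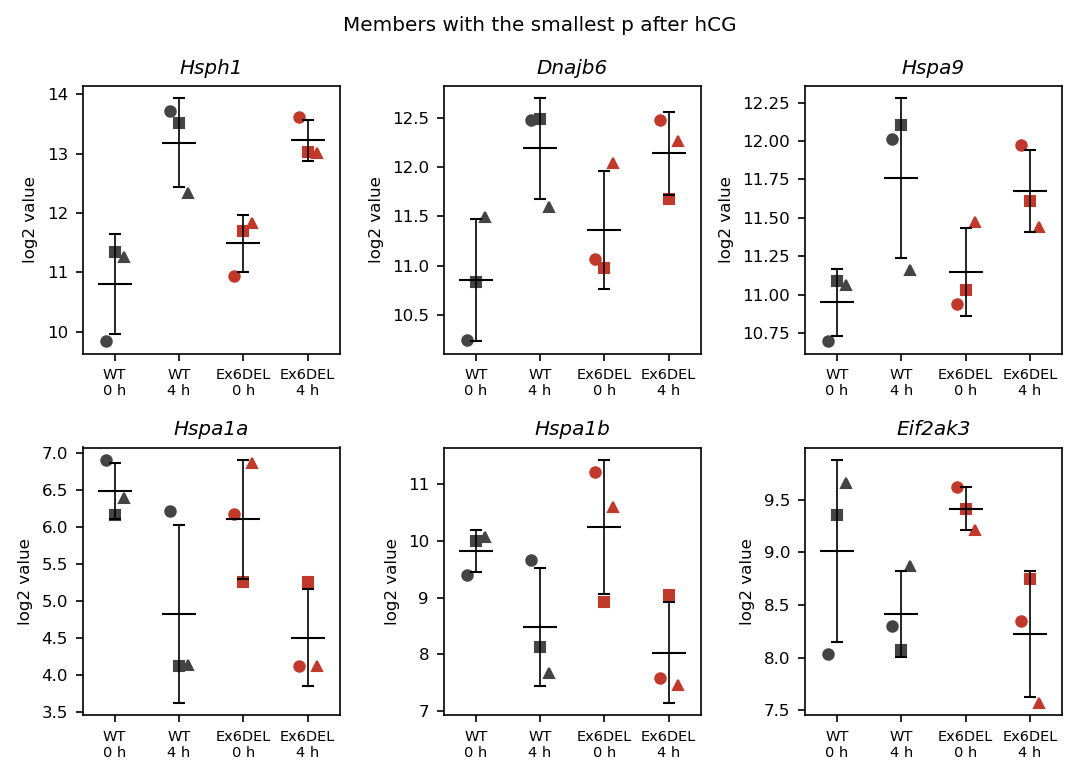
Log2 values of 6 members on each array, by genotype and hours after hCG (WT grey, Ex6DEL red; circle, square and triangle are replicates 1, 2 and 3; lines are the mean and 1 SD, n = 3). The 4 h arrays of Hsph1 lie between 12.33 and 13.71, above all 0 h arrays, while for Hspa1a and Hspa1b single 4 h arrays lie among those of 0 h.

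None of the 13 ER chaperones and folding enzymes passed in the mean response, and 8 had positive and 5 negative changes, with a median of 0.10. Hspa5, the ER Hsp70 BiP, had a change of -0.03 (95% interval -0.82 to 0.77), and Hsp90b1, the ER Hsp90 known as GRP94, one of 0.10 (95% interval -0.55 to 0.74). Another Hspa5 probe set had a mean response of 0.88 (adjusted p = 0.0940 over all probe sets), so the probe sets of this gene disagreed. The largest positive changes in the group were those of Dnajb9 (ERdj4), an ER J protein, at 1.03 (adjusted p = 0.285), and Hspa13, at 0.92 (adjusted p = 0.330). Herpud1, a component of ER-associated degradation, read 8.62, 8.63 and 8.76 in WT at 0 h and 7.92, 8.48 and 8.07 at 4 h. Its Ex6DEL values were 10.36, 8.80 and 9.35 at 0 h and 7.88, 9.46 and 7.37 at 4 h. The WT groups did not overlap and the Ex6DEL groups did, and the mean response was -0.89 (SE 0.38, adjusted p = 0.209). Without Ex6DEL 4 h replicate 2 it was -1.19 and passed (adjusted p = 0.0415), and with no other single array left out did it pass.

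The sensors and transcription factors of the unfolded protein response did not share a direction. Eif2ak3 (PERK), the ER kinase that phosphorylates eIF2alpha, read 8.03, 9.35 and 9.66 in WT at 0 h and 8.30, 8.08 and 8.87 at 4 h. In Ex6DEL it read 9.62, 9.41 and 9.21 at 0 h and 8.35, 8.75 and 7.57 at 4 h. The Ex6DEL groups were apart and the WT groups overlapped through WT 0 h replicate 1. The mean response of Eif2ak3 was -0.89 (SE 0.32, adjusted p = 0.125), and the Ex6DEL change was -1.19 (SE 0.45, adjusted p = 0.197). Without WT 0 h replicate 1 the mean response was -1.14 and passed (adjusted p = 0.0283). None of the other single arrays left out made it pass. Atf6, the sensor that is cleaved into a transcription factor, had a mean response of -0.84 (adjusted p = 0.287). Another Atf6 probe set of similar mean level had one of 0.42 (adjusted p = 0.167 over all probe sets), so the probe sets of this gene disagreed in sign.

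Atf4, the transcription factor whose translation is raised by eIF2alpha phosphorylation, read 10.56, 11.49 and 11.18 in WT at 0 h and 12.19, 13.11 and 12.09 at 4 h. Its Ex6DEL values were 10.11, 11.97 and 12.32 at 0 h and 11.96, 12.30 and 12.54 at 4 h. The WT groups did not overlap and the Ex6DEL groups did, and the mean response was 1.09 (SE 0.40, adjusted p = 0.132). Ddit3 (CHOP), the pro-apoptotic factor induced downstream of Atf4, read 6.57, 6.96 and 6.71 in WT at 0 h and 6.79, 7.40 and 6.73 at 4 h. In Ex6DEL Ddit3 read 6.73, 6.87 and 7.05 at 0 h and 7.19, 6.85 and 6.64 at 4 h. Its groups overlapped in both genotypes, with a mean response of 0.12 (95% interval -0.22 to 0.45).

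Xbp1, whose transcript is spliced by IRE1 in a way these values do not resolve, read 10.73, 10.97 and 11.73 in WT at 0 h and 11.92, 11.29 and 10.77 at 4 h. Its Ex6DEL values were 13.17, 10.78 and 11.37 at 0 h and 11.72, 11.19 and 10.82 at 4 h. The groups of Xbp1 overlapped in both genotypes, and the mean response was -0.17 (95% interval -1.14 to 0.80).

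Ern1 (IRE1) gave different answers by probe set. The probe set chosen by the rule had a mean response of 0.12. A dimmer one read 4.01, 4.24 and 4.62 in WT at 0 h, 6.09, 5.66 and 5.88 at 4 h, and in Ex6DEL 4.59, 4.01 and 4.66 at 0 h and 5.68, 5.82 and 6.46 at 4 h. Its time groups did not overlap, with a mean response of 1.57 (adjusted p = 0.00470 over all probe sets), and another had 1.49 (adjusted p = 0.0989). This probe set was chosen after its values were seen. Over the 46 other probe sets of members with a mean above that of the median probe set, 36 had a mean response of the same sign as the chosen one.

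Other genes of the same pathways, from a list of 100 of which 97 were measured, included 5 that rose and 2 that fell in the mean response, where 3.1% of all genes rose and 6.62% fell. Dnaja4, a cytosolic J protein, rose by 3.97 (SE 0.82, adjusted p = 0.0220), and its 0 h values ran from 6.13 in Ex6DEL replicate 1 to 11.31 in Ex6DEL replicate 3, against 11.34 to 13.58 at 4 h. Creb3, an ER-anchored transcription factor, rose by 1.58 (SE 0.21, adjusted p = 0.00550), and Sec63, a J protein of the ER translocon, rose by 1.20 (adjusted p = 0.00892). Nupr1, a stress-induced nuclear protein, rose by 1.37 (adjusted p = 0.0125), and Ppp1r15b, the constitutive phosphatase subunit that reverses eIF2alpha phosphorylation, by 0.99 (adjusted p = 0.0220). The Creb3 groups were apart, at 9.83 to 11.19 at 0 h and 11.59 to 12.60 at 4 h. Sil1, a nucleotide exchange factor for BiP, fell by 1.05 (adjusted p = 0.0220), and Sel1l, the adaptor of the Hrd1 ubiquitin ligase in ER-associated degradation, fell by 1.02 (adjusted p = 0.0409). Over all 97 the median change was -0.04, with 40 positive and 57 negative, beside -0.01 over all genes and -0.20 over those above the median level.

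The response was then set out for each genotype. In WT no member passed at an adjusted p under 0.05, where 0.929% of all genes did. In the WT response 10 members were higher and 1 lower at an unadjusted p under 0.05 (6.12% and 8.28% of all genes), and 6 were higher and 1 lower without overlap between the time groups (7.52% and 11.4% of all genes). Those higher without overlap were Hsph1, Dnajb6, Hspa9, Pdia6, Canx and Atf4, and the lower one was Herpud1. Pdia6, a protein disulfide isomerase, read 11.58, 12.16 and 12.38 at 0 h and 13.49, 13.04 and 12.41 at 4 h in WT. Of the 38 WT changes 32 were positive, with a median of 0.57, against 40.9% positive and a median of 0.00 over all genes. Over the genes above the median level these were 45.9% and -0.07. The member median was 0.37 without WT 0 h replicate 1, the array with most of the lowest member values. In that fit 29 were positive and 2 members had an unadjusted p under 0.05 in limma.

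In Ex6DEL no member passed, where 2.17% of all genes did (0.506% with the replicate number as a block, again with no member). Limma gave 1 member higher and 6 lower at an unadjusted p under 0.05 (4.74% and 14.2% of all genes). Hsph1 was higher and Hsp90b1, Calr and Eif2ak3 were lower without overlap (5.13% and 14.5% of all genes). Of the 38 Ex6DEL changes 16 were positive, with a median of -0.13 (42.5% and -0.01 over all genes). Over the genes above the median level, where 37 of the members lie, these were 32.9% and -0.34. The member median was 0.20 after quantile normalization and 0.07 after a shift of each array to one median, so its sign depends on the scaling. It was 0.04 without Ex6DEL 0 h replicate 1. Among the 13 ER members 10 changes were negative, with a median of -0.35, against -0.34 for all genes above the median level, and after quantile normalization 6 were negative and the median was 0.04. In the same Ex6DEL comparison all 10 theca and stroma markers were lower at 4 h, with a median of -2.01 and none past the test, and 8 of the 9 granulosa markers were lower, with a median of -2.41 and 3 that fell. The other marker lists had medians of -0.37 (oocyte), 0.00 (endothelium), 0.10 (surface epithelium), 0.25 (red blood cell) and 0.44 (leukocyte). The part of these markers in the chaperone values was not tested.

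**Figure D2:**
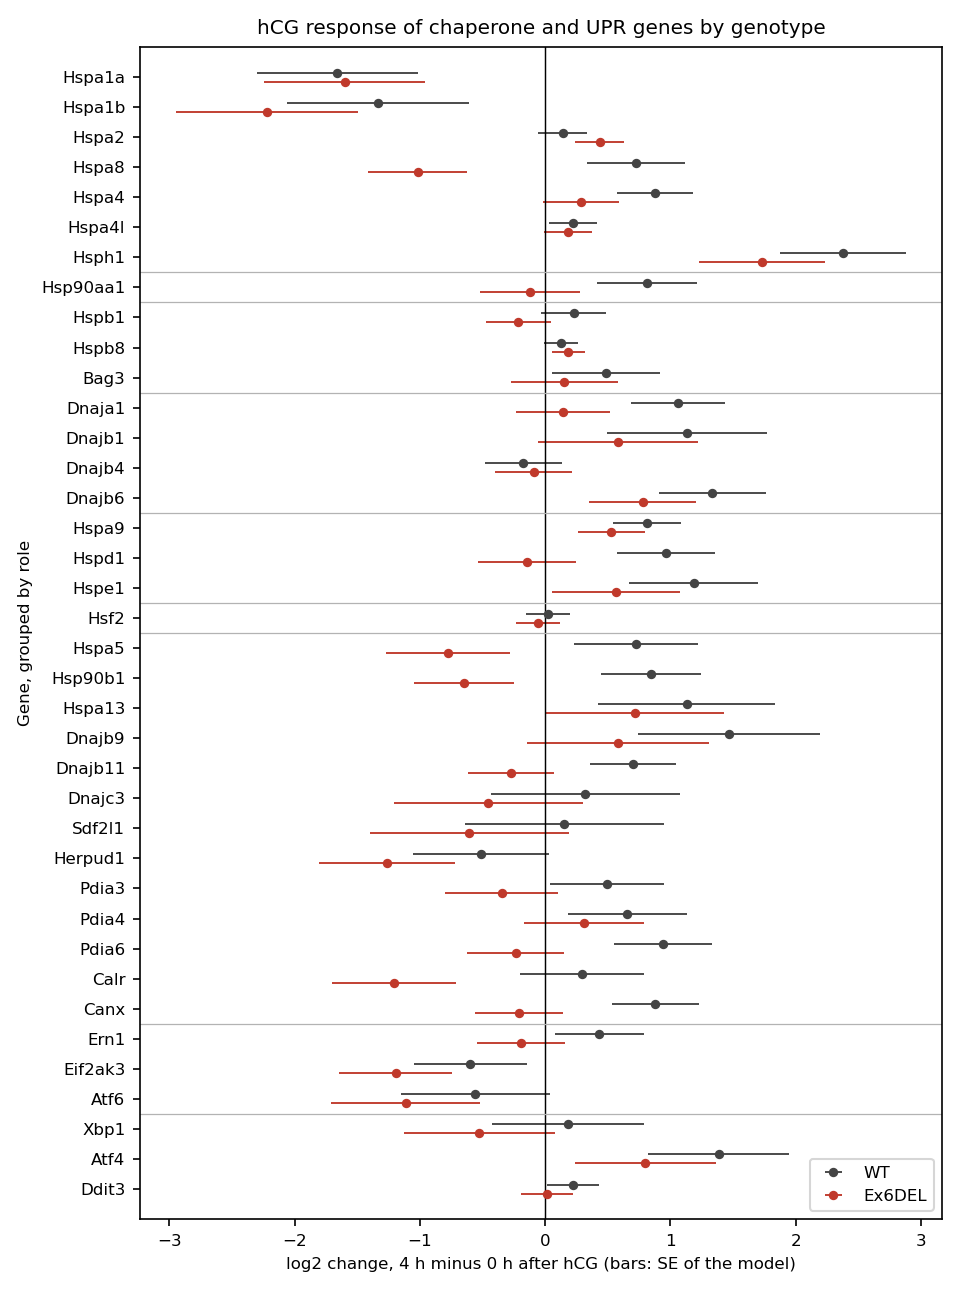
Log2 change at 4 h against 0 h for each of the 38 members in WT (grey) and Ex6DEL (red), with 1 SE of the linear model, grouped by role. Hsph1 is far to the right and Hspa1a and Hspa1b far to the left in both genotypes, and 12 of the 13 ER members lie right of 0 in WT but 3 in Ex6DEL (10 and 7 after quantile normalization).

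The test of that difference, the interaction of genotype and hCG, called no member, and 0.011% of all genes passed. At an unadjusted p under 0.05 limma gave 2 members, both negative, where 2.07% of all genes were: Hspa8, at -1.74 (SE 0.56, adjusted p = 0.871), and Hsp90b1, at -1.49 (SE 0.57, adjusted p = 0.871). Canx came next, at -1.09 (SE 0.49, adjusted p = 0.871), and was 0.041 after quantile normalization. Its chosen probe set read 12.79, 14.02 and 14.24 in WT at 0 h and 14.71, 14.70 and 14.27 at 4 h. Its Ex6DEL values were 14.88, 14.43 and 14.38 at 0 h and 14.48, 14.43 and 14.15 at 4 h. A second Canx probe set read 7.16, 9.09 and 8.77 in WT at 0 h and 10.04, 9.53 and 9.37 at 4 h. In Ex6DEL it read 7.62, 8.17 and 9.12 at 0 h and 9.86, 9.55 and 9.49 at 4 h. Its 4 h arrays lay above its 0 h arrays in both genotypes. On it and on the third Canx probe set the genotypes overlapped at each time. The interaction of Hsph1 was -0.65 (95% interval -2.26 to 0.97), so neither a smaller nor a larger response in Ex6DEL is excluded. Of the 38 member differences 34 were negative, with a median of -0.62, where the median of the genes above the median level was -0.32. After quantile normalization 20 were negative and the median was -0.05.

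The next comparison asks whether the genotypes differed before hCG. At 0 h no member passed (0.033% of all genes did), and limma gave 5 members higher in Ex6DEL and none lower at an unadjusted p under 0.05 (3.13% and 2.23% of all genes). Of the 38 members 9 were higher in Ex6DEL with no overlap between the 0 h groups, against 3.96% of all genes, and 6 of these 9 were ER chaperones or folding enzymes. Shares without overlap, here and in the other comparisons, include genes at the floor. They were not computed for the genes above the median level alone. Of the 38 differences 36 were positive, with a median of 0.53, where 61.9% of all genes were positive with a median of 0.01. Among the genes above the median level 69.6% were positive. All 13 ER members were positive, with a median of 0.83, against 0.21 for the genes above the median level. After quantile normalization the median was 0.10 for all members, with 28 positive, and 0.22 for the ER members, with 11 positive.

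Hspa8 read 14.03, 14.23 and 14.53 in WT and 15.94, 15.67 and 15.06 in Ex6DEL at 0 h. At 4 h its values were 14.65, 15.80 and 14.51 in WT and 14.16, 15.08 and 14.37 in Ex6DEL. The groups were apart at 0 h and overlapped at 4 h. The 0 h difference was 1.29 (2.45-fold, SE 0.39, adjusted p = 0.874), with an unadjusted p of 0.00992, and it was 0.20 after quantile normalization.

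Hspa5 read 13.91, 14.28 and 14.75 in WT and 16.80, 15.21 and 15.12 in Ex6DEL at 0 h. Its 4 h values were 15.50, 15.27 and 14.34 in WT and 15.31, 14.89 and 14.59 in Ex6DEL. The 0 h groups did not overlap, with Ex6DEL replicate 1 far above the others. The difference was 1.40 (SE 0.49, adjusted p = 0.874), and it was 0.85 without Ex6DEL 0 h replicate 1 and 0.38 after quantile normalization. A second Hspa5 probe set had 1.35 and the third -0.30.

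Hsp90b1 read 12.40, 13.55 and 14.01 in WT and 15.05, 14.15 and 14.23 in Ex6DEL at 0 h. At 4 h it read 14.11, 14.48 and 13.90 in WT and 13.72, 14.003 and 13.77 in Ex6DEL. The 0 h groups were apart by a small gap, with WT replicate 1 far below the others. The difference was 1.16 (SE 0.40, adjusted p = 0.874), and it was 0.70 without WT 0 h replicate 1 and 0.22 after quantile normalization. Calr and Canx, the lectin chaperones that hold newly made glycoproteins in the ER, had differences of 1.20 and 0.88. Calr read 13.53, 14.08 and 14.37 in WT and 16.48, 14.66 and 14.44 in Ex6DEL. The Calr difference was 0.56 without Ex6DEL 0 h replicate 1, and that of Canx was 0.43 without WT 0 h replicate 1 and -0.04 after quantile normalization. Herpud1, Pdia6, Dnaja1 and Hspa4 were the other members whose 0 h groups did not overlap, with differences of 0.83, 0.85, 0.81 and 0.56. Without Ex6DEL 0 h replicate 1 the difference was 0.40 for Herpud1 and 0.50 for Pdia6, and after quantile normalization these 4 differences were 0.57, 0.10, 0.17 and 0.04. On every other probe set of Hsp90b1, Canx, Herpud1, Pdia6, Dnaja1 and Hspa4 the 0 h groups overlapped. They were apart on the other probe sets of Calr, and on some but not all of those of Hspa5 and Hspa8.

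**Figure D3:**
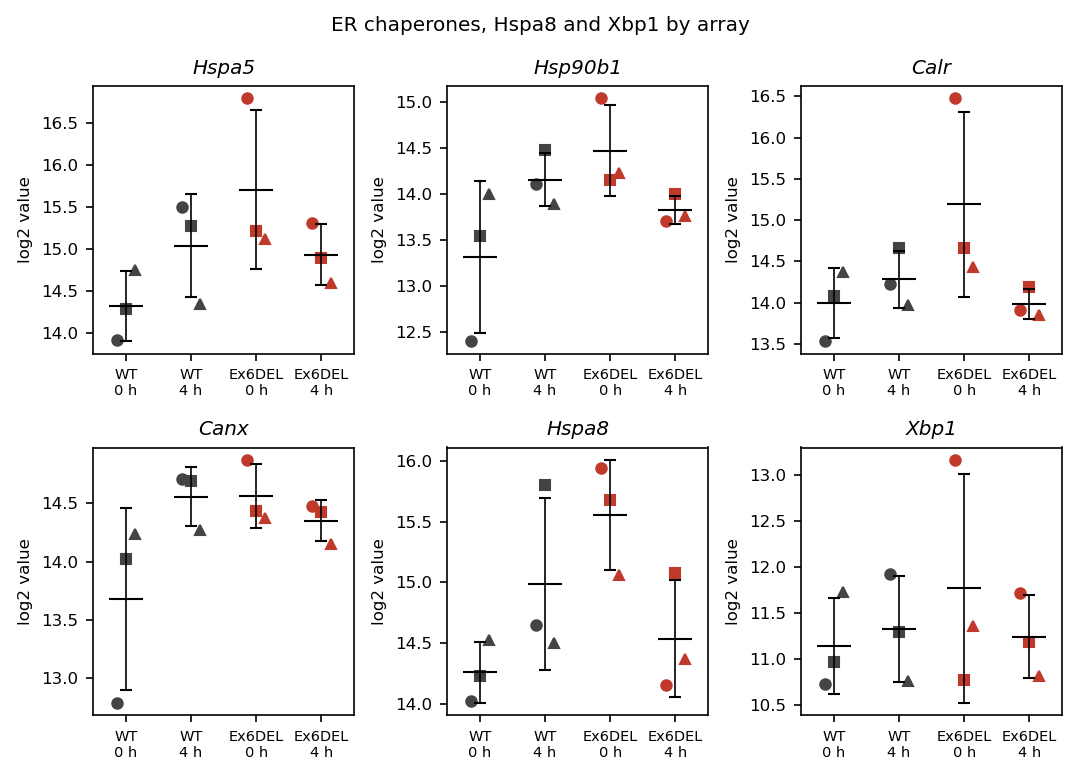
Log2 values of the ER chaperones Hspa5, Hsp90b1, Calr and Canx, of Hspa8 and of Xbp1 on each array (WT grey, Ex6DEL red; circle, square and triangle are replicates 1, 2 and 3; lines are the mean and 1 SD, n = 3). Ex6DEL 0 h replicate 1 is the highest array and WT 0 h replicate 1 the lowest in all 6 panels, and the genotypes overlap at 4 h.

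Some other measures moved with these 0 h values. Ex6DEL 0 h replicate 1 had the highest mean level of the theca and stroma markers, at 12.24 against 7.80 to 9.42 on the other arrays, with none of the 10 markers at the floor. It also had the highest mean of the 10 oocyte markers, at 9.25 against 6.99 to 8.44, with Figla at the floor, and of the 9 granulosa markers, at 13.91 against 11.16 to 13.35. All 10 theca and stroma markers had positive 0 h differences, with a median of 1.02, and none passed or was without overlap. Of the 10 oocyte markers all but Figla, at the floor in both 0 h groups, were positive too, with a median of 1.52. Among the 10, 7 had an unadjusted p under 0.05 in limma and 6 no overlap, though none passed. Of the 9 granulosa markers all but Amh, at the floor, were positive, with a median of 0.94 over the 9, and 3 had no overlap. The other marker lists did not go this way. All 7 surface epithelium markers were negative, with a median of -0.42 and 1 without overlap. Of the 8 leukocyte markers 6 were negative and 2 positive, with a median of -0.15. The endothelium markers were 4 positive and 4 negative, and the red blood cell markers 1 positive and 2 negative. The spread of all gene values on an array was largest on Ex6DEL 0 h replicate 1 (SD 3.43) and smallest on WT 0 h replicate 1 (SD 2.998). The part of these differences in the chaperone values was not tested. With both arrays left out, the 0 h median over the members was 0.22, with 26 positive, that of the ER members 0.28, and the Hspa8 difference 0.99.

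**Figure D4:**
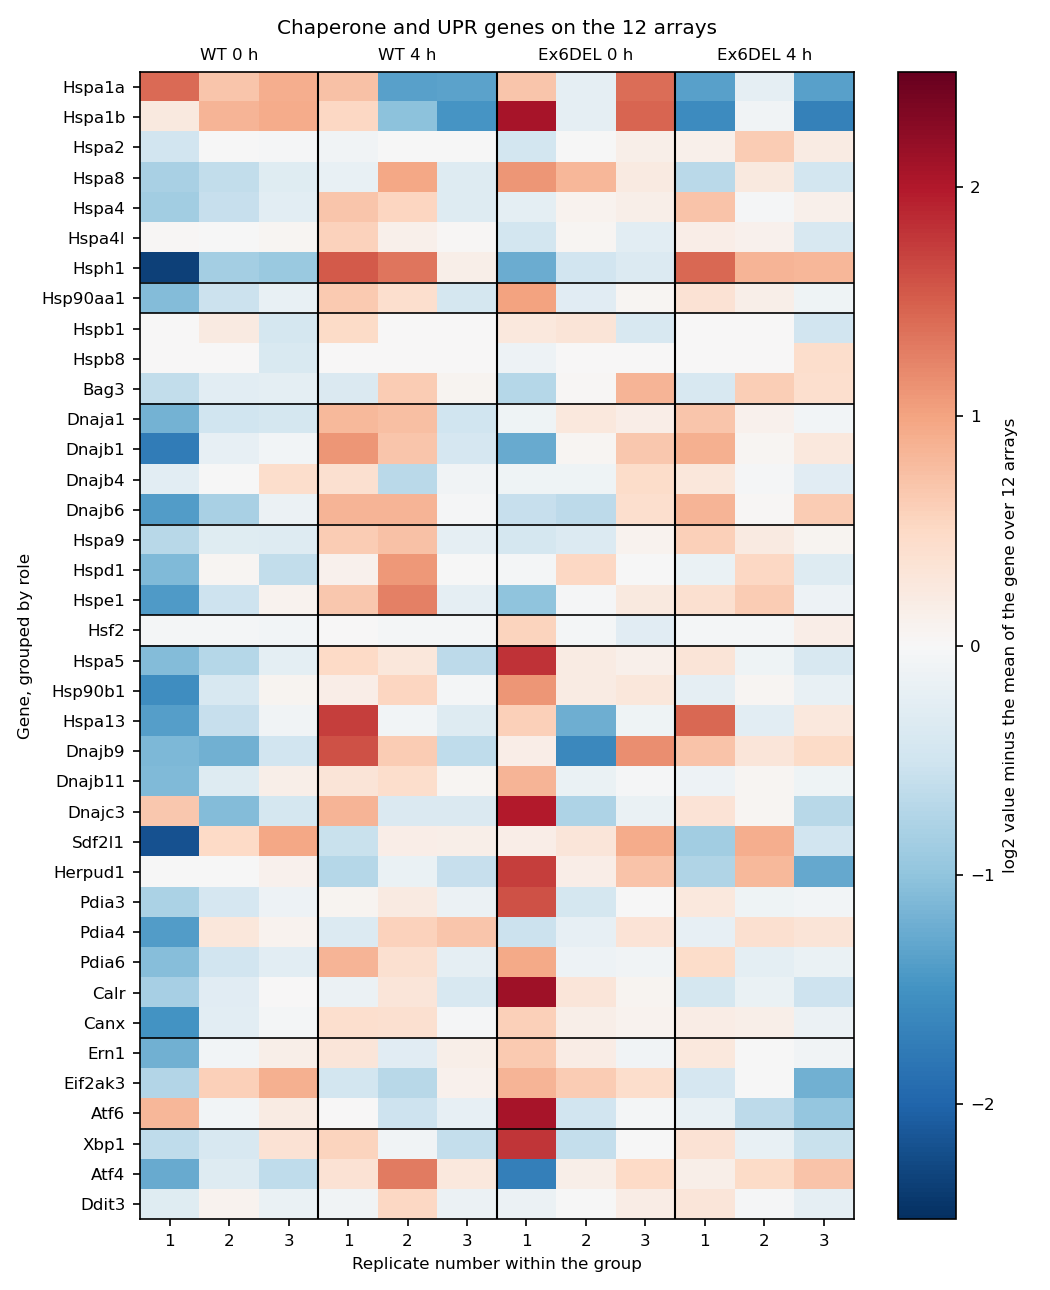
Each of the 38 members (rows, grouped by role) on each of the 12 arrays (columns), as the log2 value minus the mean of that gene over the arrays. The WT 0 h replicate 1 column is mostly blue, with 24 members at their lowest, and the Ex6DEL 0 h replicate 1 column is red among the ER members, where 9 of 13 were at their highest. After quantile normalization, which is not drawn, these counts were 6 and 6.

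The last comparison sets the genotypes side by side 4 h after hCG. No member passed and none had an unadjusted p under 0.05 in limma, where 0% and 1.62% of all genes did. Differences ran from -0.45 to 0.36, with a median of -0.10 (-0.12 over the genes above the median level), and 29 of 38 were negative. After quantile normalization the median was 0.042, with 24 positive, so its sign depends on the scaling. Leaving out 1 array gave medians from -0.37 (without WT 4 h replicate 3) to 0.016 (without WT 4 h replicate 1). Hspa2 was higher and Dnajb11, an ER J protein that works with BiP, was lower in Ex6DEL without overlap, where 0.962% and 2.02% of all genes were. Hspa2 read 4.97, 5.04 and 5.05 in WT and 5.19, 5.69 and 5.27 in Ex6DEL, a difference of 0.36 (95% interval -0.09 to 0.80, adjusted p = 1). For Hsph1 the 4 h difference was 0.03, with a 95% interval of -1.10 to 1.17, and for Hspa5 it was -0.11, from -1.23 to 1.02. Those intervals do not exclude a 2-fold difference between the genotypes in either direction. Hspa4l and Hspb1 were next by p, at -0.29 (SE 0.19) and -0.32 (SE 0.26), both with an adjusted p of 1. Hspa4l read 5.90, 5.44 and 5.35 in WT and 5.48, 5.42 and 4.92 in Ex6DEL, and its other probe sets reversed the sign when averaged with it, to 0.094. Hspb1 read 5.28, 4.80 and 4.80 in WT and 4.80, 4.80 and 4.33 in Ex6DEL, so the groups of both genes overlapped.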

How the data were processed

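RNA of granulosa cells was measured on 12 microarrays with 45101 probe sets. The authors' deposited table holds log2 values, and the submitters' processing notes name GCRMA, a background correction and normalization that leaves weak probe sets at a floor. The labels name a labelling assay for whole transcripts, while the probe sets are those of a 3' expression array, so which stretch of a transcript was labelled is not settled here. The scale was read from the values (2.21 to 18.18), and no further normalization was applied. Probe sets were named by the platform's symbol column: 34958 had exactly 1 symbol, 932 several, and 9211 are unnamed here. Each of 18194 genes was taken from its brightest probe set on average. A linear model with 4 group means was fitted to all arrays in limma 3.58.1 (R 4.3.3; lmFit and eBayes, 8 residual degrees of freedom), with Benjamini-Hochberg adjustment over all genes. The mean response is the average of the WT and Ex6DEL changes, and the interaction is the Ex6DEL change minus the WT change. The fit was tested on simulated data with known changes. Replicate numbers come from the labels. Deviations of same-numbered arrays from their group means correlated at 0.14, 0.40 and 0.24 between the Ex6DEL times, so the numbers may pair those arrays. The main fit did not use this pairing, also for the Ex6DEL change. The replicate block, run as an alternative, was fitted over all 4 groups together. In the other comparisons at least 1 of the 3 pairs was under 0.1 (0.015 to 0.24 between the WT times, -0.045 to 0.55 between genotypes at 0 h and -0.016 to 0.73 at 4 h), and the numbers were not taken as pairs. The number of arrays limits the precision. Promoter windows came from the RefSeq table of build GRCm38.p6.

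The members, roles, marker lists and the list of other pathway genes were chosen with earlier results of these data known, so none is independent evidence of a direction. Every-array values are given for members that passed, for the 3 with the smallest p in each comparison and for 9 genes fixed by name, and any member may be named. Of these, Hspa2, Hspa4l and Hspb1 are given on the 4 h arrays only. Array values of Pdia6, Calr and a dimmer Ern1 probe set were added after they were seen. Those of a second Canx probe set also fall outside this rule. Alternatives covered the scaling, the filter, the floor, the probe set rule, the variance model, array weights, the groups fitted, the replicate block, the threshold and left-out arrays. Leaving out the WT 0 h and Ex6DEL 0 h arrays of replicate 1 together, and testing every probe set by itself, were added after the data were seen.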

Additional observations from a re-analysis of the deposited data

How the results depend on the processing

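Hsph1 passed in the mean response under each of the 23 alternatives run at the 0.05 threshold. It did not pass at an adjusted p under 0.01, where 0 members and 2.23% of all genes did. The number of members called in the mean response, 1 in the analysis above, was 12 after a shift of each array to one median, which took the median of all genes from -0.01 to 0.20 and called 40.3% of them. It was 6 with the genes above the median level only (27.5% of those genes passed) and also 6 with array weights (16.5% of all genes). It was 5 with a gene's probe sets averaged (9.34%) and 3 after quantile normalization (11.3%). It was also 3 with the 0 h arrays of WT replicate 1 and of Ex6DEL replicate 3 left out (12.6%), both with raised immediate early genes. With every probe set tested by itself it was 3 as well (6.06% of probe sets). In WT the count was 1 in place of 0 after the shift (2.03% of all genes) and among the genes above the median level (5.77% of those). It was 1 by single probe set (0.618% of probe sets) and 3 with array weights (12.6% of all genes). In Ex6DEL the count was 1 after quantile normalization (2.42% of all genes) and by single probe set (0.858% of probe sets). It was 2 among the genes above the median level (14.7% of those). Leaving out each array in turn gave 0 to 1 members in WT, 1 to 4 in the mean response and 0 in the other comparisons. The 4 were Hsph1, Dnaja1, Hspa4 and Hspa9, without WT 4 h replicate 3, where 8.2% of all genes passed. The 1 in WT was Hsph1 with the same array left out, where 1.13% of all genes passed. The genotype comparisons and the interaction called 0 members under every alternative run. The direction of Hspa4l at 4 h turned to 0.094 with probe sets averaged, and that of Canx in the interaction to 0.041 after quantile normalization; the cause was not tested. With the replicate number as a block over all 4 groups, 1 member passed in the mean response (Hsph1, with 9.44% of all genes). In each other comparison 0 passed, so that this block changed no call of a member. A block for the Ex6DEL arrays alone was not fitted. The floor limits what can be seen, since 28.1% of the gene values came within 0.1 of it.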
